A study of Mus musculus with 9 samples.

Results

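Thick ascending limb (TAL) nuclei without injury transcripts were 1323 of 27738 nuclei in the deposited tables, and their transcripts are described here after ischemia-reperfusion injury (IRI) and in control kidney. They were chosen by raw counts of unique molecular identifiers (UMIs). A nucleus was a member when Slc12a1 and Umod together reached 3 UMIs, Slc12a1 exceeded Slc12a3, and the injury genes Havcr1, Vcam1, Sorcs1 and Dock10 together stayed under 2. The day 28 kidneys gave 329 members, the day 7 kidneys 129 and the control kidneys 865. The other 26415 nuclei included 317 that met both TAL conditions but carried 2 or more injury UMIs.

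The IRI mice were males of the line Krt20T2A-CE; INTACTnuGFP/+ that received tamoxifen (0.05 mg/g) and had both renal pedicles clamped for 18 min, with kidneys taken on day 28 in 3 mice and on day 7 in 2 mice. GFP in this line traces cells that had expressed Krt20, a keratin of injured tubules, and the labels name the sorted nuclei injured tubules. The 4 control mice were males of the line Six2TGC; Rosa26rtTA ; pTRE-H2BeGFP fed doxycycline (625 mg/kg food), in which GFP marks nephron nuclei, and 1 of them had no surgery and 3 had a sham operation. Reporter, drug and sort therefore changed together with injury in every comparison with control and cannot be told apart from it, while the day 28 and day 7 mice shared all of these. Serum creatinine 48 h after the clamp was 0.488, 0.208 and 0.228 mg/dL in the day 28 mice and 0.255 and 0.133 mg/dL in the day 7 mice.

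The thick ascending limb reabsorbs salt without water. Its apical cotransporter NKCC2 (Slc12a1) takes up sodium, potassium and chloride, potassium returns to the lumen through ROMK (Kcnj1), and the resulting voltage drives calcium and magnesium through claudin pores, under the control of the calcium-sensing receptor (Casr). The segment also secretes uromodulin (Umod), the most abundant protein of normal urine, and the precursor of epidermal growth factor (Egf), whose urinary level is known to fall in kidney disease.

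Each library held between 1397 and 4564 nuclei and between 1833617 and 14641038 UMIs. The members summed to 593617 UMIs at day 28, 267966 at day 7 and 1498047 in control. The median UMIs per member ran from 708 to 2764 over the 9 libraries. Cell barcodes of day 28 mouse 1 and all 4 controls came from the v2 set, and those of day 28 mice 2 and 3 and both day 7 mice from the v3 set, so the barcode set runs almost along with injury. Malat1, a nuclear noncoding RNA, took 13.6% to 15.4% of member UMIs at day 28, 6.59% to 10.4% at day 7 and 20.4% to 23.3% in control. A barcode was shared between libraries for 264 nuclei, of which 16 were members.

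The label was checked against 17 TAL marker genes. Their summed level in raw CPM (a gene's UMIs scaled to a total of 1000000 over the summed nuclei) ran from 23111 to 28198 in day 28 members, 13179 to 16988 in day 7 members and 13707 to 17618 in control members, against 441 to 865 in the other nuclei of the 9 libraries. All 17 markers averaged higher in members than in other nuclei, and 16 did so in every library. Slc12a1 and Umod chose the members and many of the others travel with them, so these levels describe the nuclei and carry no test.

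Promoter sequences of 4 member genes are shown because the 4 genes frame the results: Slc12a1 and Umod define the nuclei, Tmem207 is a marker that was lower on day 7, and Dcdc2a is a gene whose day 28, day 7 and control libraries did not overlap. Each line runs 5' to 3' on the gene's own strand within the 250 bases before the RefSeq start (GRCm38.p6), without bases that GENCODE places inside the gene. Slc12a1 is read from chr2:125152350-125152504 on the plus strand, Tmem207 from chr16:26526772-26527021 and Umod from chr7:119479283-119479512 on the minus strand, and Dcdc2a from chr13:25055754-25056003 on the plus strand. Capitals mark the only matches to either motif searched on both strands, the estrogen-related receptor half-site AAGGTCA (read here as TGACCTT on the opposite strand) and the HNF1 core GTTAAT.
Slc12a1: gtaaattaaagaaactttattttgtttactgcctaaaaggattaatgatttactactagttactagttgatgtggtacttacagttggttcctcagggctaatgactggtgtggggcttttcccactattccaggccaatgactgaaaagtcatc
Umod: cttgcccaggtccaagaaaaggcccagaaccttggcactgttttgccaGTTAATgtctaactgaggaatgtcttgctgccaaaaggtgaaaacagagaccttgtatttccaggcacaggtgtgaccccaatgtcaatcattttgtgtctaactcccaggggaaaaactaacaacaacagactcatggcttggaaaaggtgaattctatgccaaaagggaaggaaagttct
Tmem207: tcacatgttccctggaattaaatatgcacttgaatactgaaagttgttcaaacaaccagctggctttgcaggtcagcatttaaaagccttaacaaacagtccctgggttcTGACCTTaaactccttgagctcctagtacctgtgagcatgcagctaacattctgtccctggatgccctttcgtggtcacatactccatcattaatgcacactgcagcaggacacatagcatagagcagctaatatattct
Dcdc2a: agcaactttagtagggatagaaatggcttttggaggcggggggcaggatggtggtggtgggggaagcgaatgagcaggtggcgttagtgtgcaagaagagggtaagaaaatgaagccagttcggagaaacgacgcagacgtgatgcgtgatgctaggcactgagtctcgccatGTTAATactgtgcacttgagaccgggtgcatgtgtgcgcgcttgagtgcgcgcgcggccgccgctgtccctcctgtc

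Among 32851 RefSeq promoter windows, 4.08% held the half-site and 6.43% held the HNF1 core. Of the 15 genes with the highest ratio of members to other nuclei, 13 had a promoter in the table, and 1 gene held each motif. Such matches are letters in a window and no evidence of binding.

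Those 15 genes were Slc12a1, Tmem207, Pcsk6, Tenm2, Egfl6, Ptger3, Egf, Enox1, Casr, Sgcz, Umod, Ephb2, Slc2a13, Pla1a and Pak6, each higher in members in all 9 libraries. The ratio of mean member CPM to mean other CPM was 76.9 for Slc12a1 (chr2:125152505-125230002, plus strand, GRCm38), 47.4 for Egf (chr3:129677565-129755316, minus strand) and 36.0 for Umod (chr7:119462711-119479282, minus strand). Ptger3, the EP3 receptor of prostaglandin E2, averaged 541 CPM in members and 11.1 CPM in other nuclei, a ratio of 48.8. Tenm2, a teneurin adhesion protein, had a ratio of 58.2, and Pcsk6, a proprotein convertase, one of 59.1. The ligand precursor Egf was shared with a neighbouring segment. It averaged 4067 CPM in members and 1378 CPM in 361 distal convoluted tubule nuclei chosen by a rule of the same form on Slc12a3. TAL nuclei with injury transcripts averaged 2783 CPM over 9 libraries, where the 4 controls held 13 such nuclei in all. By group these nuclei had 1965 CPM at day 28, 878 at day 7 and 4349 in control. Members had 4958, 2038 and 4412 CPM. The oxidase Enox1 had 722 CPM in members and 323 CPM in TAL nuclei with injury transcripts at day 28, and 511 and 235 CPM at day 7. In control it had 349 CPM in members and 804 CPM in the 13 TAL nuclei with injury transcripts.

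The values that chose the members are a description. Slc12a1 had 16039, 14570 and 14886 raw CPM in day 28 members, 9544 and 7959 in day 7 members, and 8635, 6825, 5778 and 6476 in control members. All 3 day 28 libraries lay above every other library, and the day 7 and control libraries overlapped. Umod had 1891, 1633 and 995 raw CPM at day 28, 1366 and 886 at day 7, and 1007, 2015, 1330 and 1701 in control. The 3 groups overlapped for Umod. At the edges of the rule, 39 members had exactly 3 UMIs of Slc12a1 and Umod, 99 nuclei outside it had 2, and the median member had 16. For the injury genes, 1198 members had 0 UMIs and 125 had 1, while 49 TAL nuclei outside the rule had 2 and 268 had 3 or more.

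Among the TAL nuclei of each library, 84.9%, 77.6% and 69.9% carried fewer than 2 injury UMIs in the day 28 mice (mean 77.4% ± 7.50, SD, n = 3), 39.1% and 35.2% in the day 7 mice (37.2% ± 2.76, n = 2), and 98.1%, 99.1%, 98.5% and 99.3% in the controls (98.8% ± 0.559, n = 4). The groups did not overlap. The day 7 sorts thus held more TAL nuclei with injury transcripts (123 and 92) than without (79 and 50), and the day 28 sorts held fewer (23, 41 and 25, against 129, 142 and 58 without). The split rests on the injury genes of the rule and carries no test.

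The share of all sorted nuclei that were members did not separate injury from control. It was 6.92% (Wilson 95% interval 5.86 to 8.17), 3.62% (3.08 to 4.25) and 4.15% (3.23 to 5.33) at day 28. On day 7 it was 2.05% (1.65 to 2.55) and 1.39% (1.06 to 1.83), and in control 13.0% (12.0 to 14.2), 4.52% (3.78 to 5.40), 2.94% (2.48 to 3.47) and 6.12% (5.23 to 7.14), with intervals that cover counting error only. The 5 IRI libraries averaged 3.63% ± 2.16 and the 4 controls 6.65% ± 4.45, a difference of -3.03 percentage points (two-sided exact permutation test, p = 0.214). Within the v2 barcodes the difference was 0.271 points with 1 IRI mouse and no test, and without control 1, the mouse with no surgery, it was -0.897. Day 28 exceeded day 7 by 3.17 points (exact permutation p = 0.2, where 0.1 is the smallest p that 3 against 2 libraries allow), and within the v3 barcodes by 2.16 points (exact p = 0.333). Fewer TAL cells and fewer TAL cells labelled by GFP cannot be told apart in a sort.

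**Figure D1:**
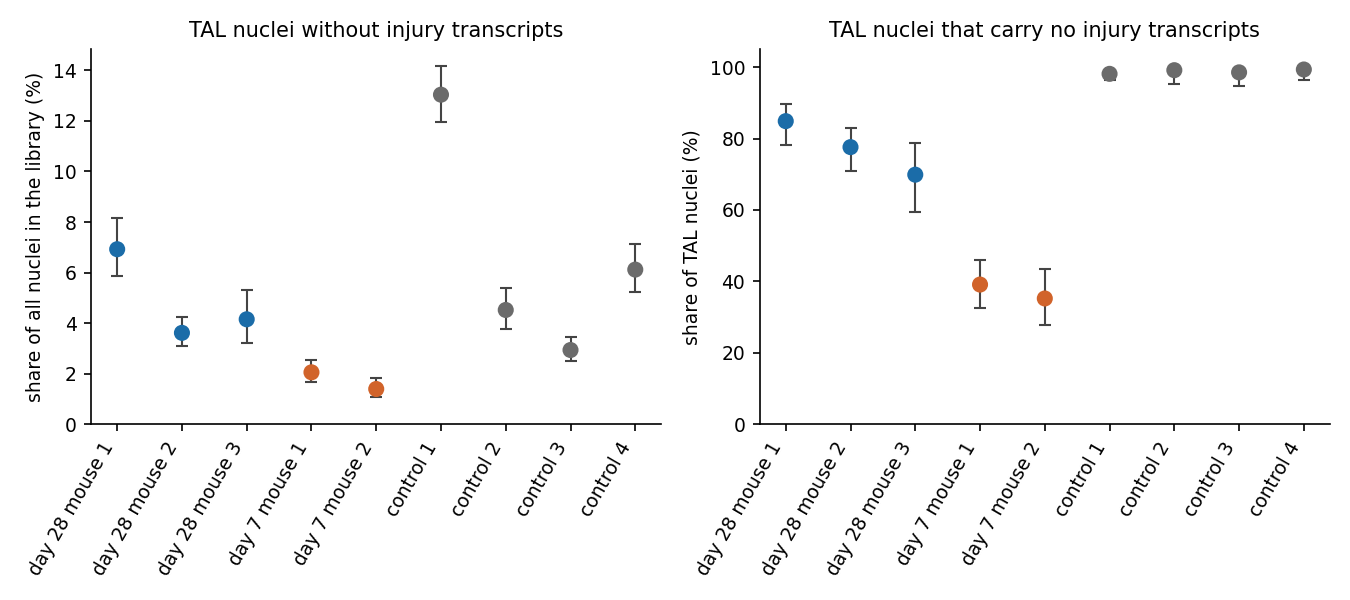
Share of all nuclei that were members (left, percent) and share of TAL nuclei without injury transcripts (right, percent), 1 point per library, with day 28, day 7 and control from left to right. The left panel overlaps between day 28 and control, and in the right panel the day 7 libraries sit at 39.1% and 35.2%, under all others.

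Nuclei within the class differed in what they expressed. A UMI of Egf was found in 76.7%, 71.1% and 55.2% of day 28 members, 46.8% and 38.0% of day 7 members, and 74.1%, 85.2%, 90.3% and 65.5% of control members, against 1.62% to 9.55% of proximal tubule (PT) nuclei in the same libraries. The median depth was 708 to 2764 UMIs in members and 698 to 4554 UMIs in PT nuclei. The day 7 shares were the lowest, although both day 7 libraries had a higher median depth than 3 of the 4 controls. The Wilson 95% interval of the lowest share, 38.0%, ran from 25.9% to 51.9%, and that of the highest, 90.3%, from 84.1% to 94.2%. One nucleus of day 7 mouse 1 alone held 130 of that library's 466 member UMIs of Egf. Umod was detected in 56.0% to 86.6% of members, Ptger3 in 22.3% to 62.1% and the magnesium pore gene Cldn16 in 0.676% to 11.3%, against at most 4.62% of PT nuclei for Ptger3 and 0.214% for Cldn16. Cldn10, a sodium-permeable claudin, did not mark the class, with 15.5% to 48.5% of members and 22.5% to 78.6% of PT nuclei. Nos1, the marker of macula densa cells, was found in 1, 5 and 2 members at day 28, in no member at day 7 and in 6, 2, 0 and 0 in control. A nucleus without a Nos1 UMI may still express it at these depths.

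PT transcripts were present in the members and differed between groups, which bears on every comparison with control. The 20 PT markers summed to 3187, 1014 and 3189 raw CPM in day 28 members, 2311 and 4521 in day 7 members, and 8021, 11782, 12735 and 7142 in control members. All controls lay above all IRI libraries. In PT nuclei of the same libraries (Slc34a1 of at least 3 UMIs and above Slc12a1 plus Umod, few injury UMIs) the sum was 16053 to 22072. Slc34a1, the main phosphate cotransporter of the PT, had a UMI in 7.75%, 7.04% and 19.0% of day 28 members, in 10.1% and 16.0% of day 7 members, and in 62.8%, 67.8%, 76.1% and 43.9% of control members. Leaving out members with any UMI of Slc34a1 or the PT endocytic receptor Lrp2 kept 281 members at day 28, 97 at day 7 and 292 in control, and the comparisons were repeated on these 670, an alternative chosen after seeing the data. Even these had 285 to 541 CPM of PT markers at day 28, 553 and 814 at day 7, and 1359 to 3358 in control. Podocyte markers summed to 634 to 2034 CPM over the 9 member sums, against 476 to 2579 in other nuclei. Distal convoluted and connecting tubule markers summed to 788 to 1273 CPM in members, against 976 to 2435 in other nuclei. Endothelial markers reached at most 460 CPM in members, thin limb markers 457 and principal cell markers 281. Leukocyte markers reached at most 166, intercalated cell markers 142 and stromal markers 75.3.

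**Figure D2:**
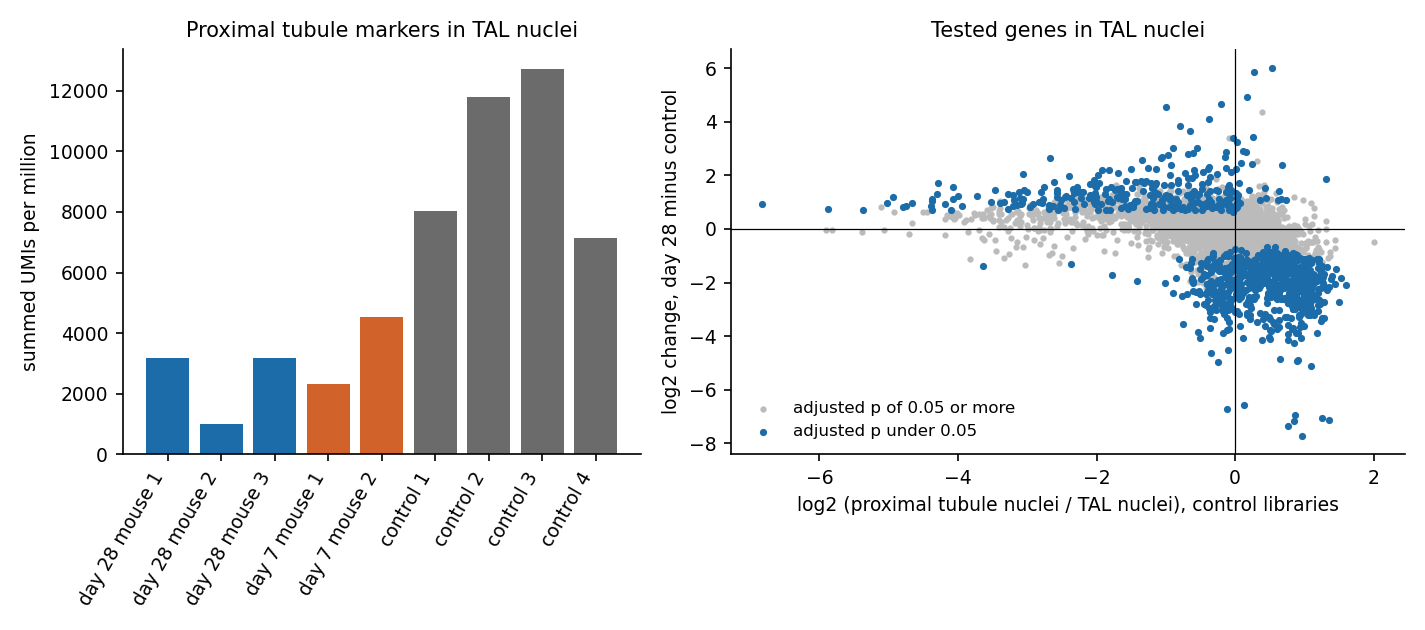
Left, summed raw CPM of 20 PT markers in members of each library, with day 28, day 7 and control from left to right and all 4 controls above the 5 IRI libraries. Right, 1 point per gene, the day 28 minus control log2 change in members against the log2 ratio of PT to TAL nuclei in control libraries (5 CPM added to both), in which 77.4% of the genes lower at day 28 have higher levels in control PT nuclei.

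Genes were then compared over the summed members of each library, with 4955 genes tested in 1 edgeR quasi-likelihood fit and Benjamini-Hochberg adjusted p-values over all of them. Levels below are CPM scaled by TMM factors, and changes are log2 with their standard error. At day 28 against control, 963 genes (19.4% of those tested) passed an adjusted p of 0.05, 307 higher (6.2%) and 656 lower (13.2%), and the median change over all genes was 0.01. At day 7 against control 827 genes passed (16.7%), 248 higher (5.01%) and 579 lower (11.7%), with a median of -0.04. Lack of overlap between libraries was common. At day 28 against control it held for 10.6% of all tested genes on the higher side and 16% on the lower. At day 7 against control it held for 18.9% and 24%. At day 28 against day 7 it held for 14.9% and 14.1%. Of the 656 genes lower at day 28, 508 (77.4%) had higher levels in control PT nuclei than in control members, against 2010 of all 4955 tested (40.6%) and 29 of the 307 higher genes (9.45%). At day 7 these counts were 372 of 579 lower genes (64.2%) and 53 of 248 higher genes (21.4%). With the barcode set as a term in the fit, 18 genes passed at day 28 and 0 at day 7. At day 7 438 genes had an unadjusted p under 0.05 with the term, and DESeq2 without the term called 650. Over the members without PT UMIs 3099 genes were tested. In that fit 124 passed at day 28 (24 higher, 100 lower) and 211 at day 7 (49 higher, 162 lower). The parts of barcode set and of PT RNA in these counts were not tested beyond those fits, and the comparisons with control share their 4 libraries. Only the day 28 group held both barcode sets, so the term is set by day 28 mouse 1 against day 28 mice 2 and 3. With the term, day 28 against control therefore rests on day 28 mouse 1. No day 7 library shared a set with a control, so day 7 values with the term are carried over from the day 28 group.

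Short genes and long genes moved differently. When the tested genes were ranked by annotated length in 5 groups of 983, the shortest group (median 10778 bases) had a median change of -0.68 at day 28 and -1.25 at day 7, and the longest (median 220030 bases) one of 0.29 at both times. With the barcode term these medians were -0.33 and -0.56 for the shortest and 0.11 and 0.06 for the longest. Lists of short, abundant genes below stand beside this.

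Of 13 tested genes of TAL salt transport, 1 was higher and 1 lower at day 28, with a list median of -0.32, and 0 were higher and 2 lower at day 7, with a median of -0.53, counts near the share of all genes. Over members without PT UMIs 2 of 10 were lower at day 28 and 3 of 10 at day 7. None was higher, and the medians were -0.76 and -1.06. In that fit 100 of all 3099 tested genes were lower at day 28 and 162 at day 7. Kcnj1, the ROMK channel, had 310, 366 and 250 CPM at day 28 and 250 and 225 at day 7, against 248, 152, 124 and 111 in control. The day 28 libraries all lay above the controls, the lowest by a narrow margin. Kcnj1 rose by 0.88 ± 0.28 at day 28 (adjusted p = 0.036), and the call was lost without day 28 mouse 2 (adjusted p = 0.159) and without control 2, 3 or 4 (0.0738, 0.0996 and 0.0776). Fxyd2, the gamma subunit that tunes the sodium pump, had 1393, 919 and 624 CPM at day 28 and 721 and 300 at day 7, against 1898, 2314, 1400 and 2903 in control. All IRI libraries lay under the controls. Fxyd2 fell by 1.12 on the log2 scale at day 28 (adjusted p = 0.0236, lost without day 28 mouse 2 or 3 or control 2 or 4, adjusted p up to 0.155) and fell by 2.03 at day 7 (adjusted p = 0.00464, lost without day 7 mouse 2, 0.0642). Kcnj16, a basolateral potassium channel subunit, averaged 874 ± 129 CPM at day 28, 892 ± 69.1 at day 7 and 892 ± 206 in control (SD, n = 3, 2 and 4).

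Calcium handling genes separated at day 28 in 1 gene. Casr (chr16:36493696-36562141, minus strand), the receptor by which blood calcium slows transport in this segment, had 780, 803 and 553 CPM at day 28 and 458 and 478 at day 7, against 222, 323, 445 and 242 in control. Every IRI library lay above every control. Casr rose by 1.20 ± 0.26 at day 28 (adjusted p = 0.00407), a call kept without any single library, and the day 7 change was 0.60 ± 0.30 (adjusted p = 0.19). It was 1.34 with the barcode term (adjusted p = 0.106), and 0.71 over members without PT UMIs (adjusted p = 0.22). Of the 12 tested genes of TAL junctions and divalent cations Casr was the only one past the threshold at day 28. Of all tested genes 6.2% were higher and 13.2% lower at day 28, and 5.01% and 11.7% at day 7. At day 7, Tmem207, a small membrane protein of the segment, had 141 and 74.9 CPM, against 356, 178, 332 and 262 in control, and 235, 277 and 339 at day 28. Tmem207 fell by 1.37 at day 7 (adjusted p = 0.0188), a call lost without day 7 mouse 1 (0.0985) or mouse 2 (0.217). The higher gene of this list at day 7 was Pth1r, which encodes the parathyroid hormone receptor, with a change of 0.88 ± 0.29 just under the threshold, lost without any of 7 libraries (up to 0.338 without day 7 mouse 2).

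Regulators of NKCC2 gave 3 higher and 1 lower gene of 15 at day 28, and 1 of each at day 7. The shares over all tested genes were 6.2% higher and 13.2% lower at day 28, and 5.01% and 11.7% at day 7. Sorl1, a sorting receptor, had 285, 421 and 511 CPM at day 28 and 464 and 318 at day 7, against 199, 178, 147 and 171 in control. The IRI libraries did not overlap the controls. Sorl1 rose by 1.22 ± 0.25 at day 28 (adjusted p = 0.00321) and by 1.17 ± 0.28 at day 7 (adjusted p = 0.0119, lost without day 7 mouse 1, 0.234). Stk39, the SPAK kinase that phosphorylates NKCC2, rose by 0.76 ± 0.22 at day 28 (adjusted p = 0.0219) and Ptger3 by 0.70 ± 0.20 (adjusted p = 0.0198). Without day 28 mouse 3 these gave adjusted p = 0.0533 and 0.0602, and Stk39 was also lost without day 28 mouse 2 (0.108) and control 2 or 3 (0.0553 and 0.0577). Cul3, the ubiquitin ligase scaffold that acts with Klhl3 on WNK kinases, fell by 0.77 at day 28 (adjusted p = 0.0412), and leaving out any 1 of 8 libraries raised it above the threshold, to as much as 0.174 without day 28 mouse 3. Wnk1, a kinase upstream of SPAK, had 397 and 234 CPM at day 7, against 908, 1078, 664 and 585 in control, and fell by 1.34 (adjusted p = 0.0107, lost without day 7 mouse 1 or 2, 0.0639 and 0.154). Over the members without PT UMIs the day 28 changes of Kcnj1 and Stk39 were 0.06 and 0.10.

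**Figure D3:**
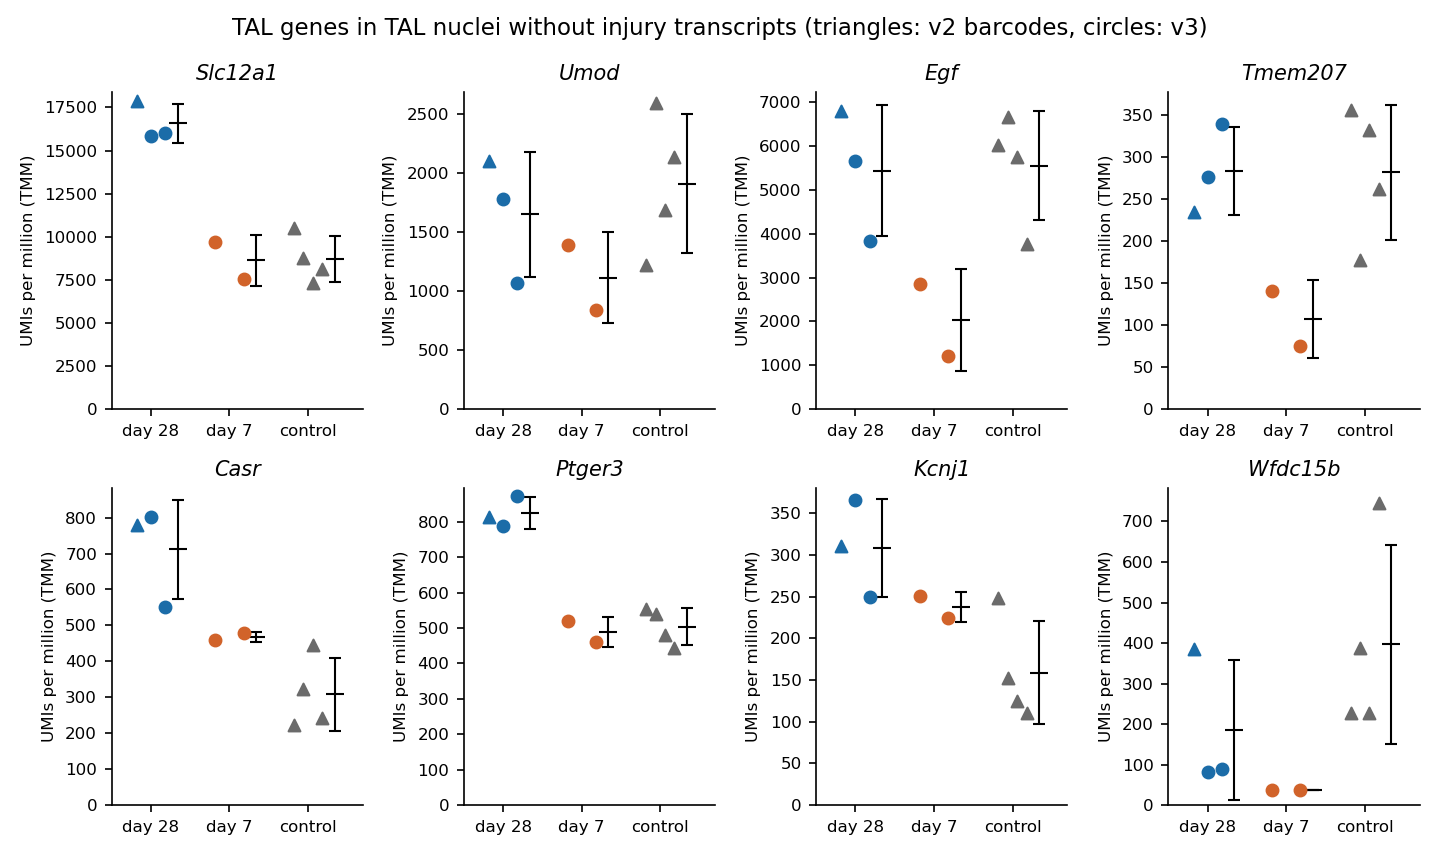
TMM-scaled CPM of 8 TAL genes in members, 1 point per library (triangles v2, circles v3 barcodes), with the mean and SD of day 28, day 7 and control from left to right. Egf and Tmem207 are lowest at day 7, and Casr, Ptger3 and Slc12a1 are highest at day 28.

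Egf, a growth factor made by the segment, had 6804, 5649 and 3838 CPM at day 28 and 2847 and 1208 at day 7, against 6014, 6657, 5756 and 3770 in control. Both day 7 libraries lay under all others, and day 28 and control overlapped. Egf fell by 1.45 on the log2 scale at day 7 (SE 0.36, adjusted p = 0.0133), and its day 28 change was -0.03 ± 0.29 (adjusted p = 0.959). Without day 7 mouse 2 the day 7 call was lost (adjusted p = 0.166), with the barcode term the change was -0.93 (adjusted p = 0.71), and over members without PT UMIs it was -2.38 (adjusted p = 0.000199). Between the injured groups Egf was 1.41 ± 0.37 higher at day 28 than at day 7 (adjusted p = 0.099), and 1.82 over members without PT UMIs (adjusted p = 0.00713). TAL nuclei with injury transcripts averaged 1965 raw CPM of Egf at day 28 and 878 at day 7, against 4349 in the few of the controls.

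Among all tested genes 6.2% were higher and 13.2% lower at day 28, and 5.01% and 11.7% at day 7. Of the 8 tested secreted genes, 0 were higher and 1 lower at day 28, and 1 was higher and 3 lower at day 7. Their medians were -0.50 and -0.51. Over members without PT UMIs 3 of 8 were lower at day 28 and 2 of 8 at day 7, with medians of -1.03 and -0.95. Lower calls in that fit were 100 of all 3099 tested genes at day 28 and 162 at day 7. Wfdc15b, a small four-disulfide core protein, had 386, 81.8 and 89.1 CPM at day 28 and 36.7 and 37.5 at day 7, against 228, 387, 226 and 746 in control. Its day 7 libraries lay under every other. Wfdc15b fell by 3.31 at day 7 (adjusted p = 0.00992, lost without day 7 mouse 1 or 2, 0.118 and 0.0557), and its change was -1.13 with the barcode term (adjusted p = 0.776). Sostdc1, an antagonist of BMP and Wnt ligands, fell by 1.38 at day 28 (adjusted p = 0.0262) and fell by 1.64 at day 7 (adjusted p = 0.0422), each lost on leaving out any of 4 libraries (controls 2 and 4 and 2 libraries of the injured group, adjusted p up to 0.135 and 0.253). Spp1, which encodes osteopontin, had 593 and 543 CPM at day 7, against 308, 387, 204 and 272 in control, and rose by 0.96 ± 0.29 (adjusted p = 0.0317), lost without either day 7 mouse or control 3 or 4 (up to 0.206). Umod overlapped between all groups on this scale as well, with 2106, 1776 and 1070 CPM at day 28 and 1387 and 843 at day 7, against 1225, 2593, 1690 and 2137 in control.

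Of 16 tested transcription factors of the segment, Pax2 and Esrrb were higher at day 28, and Pax2 was higher at day 7. None was lower, and the list medians were 0.49 and 0.28. Over members without PT UMIs 0 of 16 passed at either time. Higher calls made up 6.2% of all tested genes at day 28 and 5.01% at day 7. Pax2, an early factor of nephron formation, had 336, 534 and 541 CPM at day 28 and 550 and 562 at day 7, against 311, 139, 196 and 252 in control. All IRI libraries lay above the controls. Pax2 rose by 1.05 ± 0.27 at day 28 (adjusted p = 0.0118, lost without day 28 mouse 2, 0.0588) and by 1.27 ± 0.30 at day 7 (adjusted p = 0.0107, lost without day 7 mouse 1 or 2, 0.105 and 0.0676). Esrrb, an estrogen-related receptor of the limb, rose by 0.85 ± 0.27 (adjusted p = 0.0345), lost without day 28 mouse 2 (0.328) or control 2, 3 or 4 (up to 0.0834). Over the members without PT UMIs the Pax2 changes were 0.30 and 0.62.

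Genes of tubule injury and of adaptive TAL states were higher in members although the members were chosen to lack injury transcripts. The members' rule used none of this list, but in the same nuclei the rule genes and these may travel together. Of the list's 39 genes 20 could be tested. At day 28 7 were higher and 0 lower, with a list median of 0.59, beside 6.2% of all tested genes higher. At day 7 7 were higher and 0 lower, with a median of 0.71, beside 5.01% of all tested genes higher. Dcdc2a, Cp, Ncam1, Sox4 and Myof were among the 7 at both times, with Tgfbr1 and Pdgfd at day 28 and Spp1 and Bicc1 at day 7. With the barcode term the counts were 0 at both times, with medians of 0.38 and 0.59. Over the members without PT UMIs 1 and 3 of 17 were higher, beside 24 and 49 of all 3099 genes tested there. The keratins Krt7, Krt8, Krt18, Krt19 and Krt20, and Lcn2, Cd44 and Sox9, did not reach the minimum count for a test. Krt20, the gene whose promoter drives the tracing, had 1 UMI in all members.

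Dcdc2a (chr13:25056004-25210706, plus strand), a doublecortin-domain protein that binds microtubules, had 168, 187 and 291 CPM at day 28 and 544 and 646 at day 7, against 36.5, 69.7, 37.7 and 40.3 in control. The 3 groups did not overlap, with day 7 highest and control lowest. Day 28 lay under day 7 without overlap in 14.1% of all tested genes. Dcdc2a rose by 2.30 ± 0.31 at day 28 (adjusted p = 0.000237) and by 3.75 ± 0.32 at day 7 (adjusted p = 7.56e-06), and both calls held without any single library. With the barcode term the changes were 1.94 (adjusted p = 0.0926) and 3.27 (adjusted p = 0.0648), and over members without PT UMIs 2.06 (adjusted p = 0.0118) and 3.52 (adjusted p = 3.72e-05). At day 28 it was 1.45 ± 0.30 lower than at day 7 (log2 change -1.45, adjusted p = 0.0345), a call lost without day 7 mouse 1 (0.184) or 2 (0.418) or day 28 mouse 1 (0.0792) or 2 (0.114). In the IRI sorts the level in members was under that of other nuclei, 198 raw CPM against 652 at day 28 and 608 against 798 at day 7, while in control it was 36.5 against 31.7.

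Il34 (chr8:110741829-110805924, minus strand), the cytokine that feeds macrophages through the Csf1 receptor, had 512, 413 and 380 CPM at day 28 and 550 and 703 at day 7, against 228, 114, 166 and 202 in control. Every IRI library lay above every control, and the day 28 libraries lay under both day 7 libraries. Il34 rose by 1.26 ± 0.25 at day 28 (adjusted p = 0.0029) and by 1.78 ± 0.28 at day 7 (adjusted p = 0.00158), and both calls held without any single library. The barcode term gave 1.49 (adjusted p = 0.0903) and 2.14 (adjusted p = 0.201), and members without PT UMIs gave 0.95 (adjusted p = 0.147) and 1.62 (adjusted p = 0.0109). In raw CPM other nuclei had 1166 at day 28, 1314 at day 7 and 94.1 in control, against 398, 640 and 142 in members. Nfkb1, a subunit of NF-kB, had 324 and 290 CPM at day 7, against 89.0, 88.8, 56.6 and 181 in control, and rose by 1.69 ± 0.36 (adjusted p = 0.00617, lost without day 7 mouse 1, 0.0961). Its day 28 change was 0.94 ± 0.33 (adjusted p = 0.0587), and 4 of the 24 NF-kB and chemokine genes could be tested.

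Cp, the copper-carrying ferroxidase ceruloplasmin, had 92.3, 74.0 and 35.6 CPM at day 28 and 171 and 272 at day 7, against 26.3, 12.7, 37.7 and 10.1 in control. Day 7 lay above all controls, and day 28 overlapped control 3. Cp rose by 3.10 ± 0.44 at day 7 (adjusted p = 0.00117), held without any single library, and by 1.39 ± 0.45 at day 28 (adjusted p = 0.0383), lost without any of 5 libraries, day 28 mouse 1 or 2 or control 1, 2 or 4 (up to 0.152). Ncam1, an adhesion molecule of the embryonic kidney, had 58.7, 66.2 and 47.5 CPM at day 28 and 61.1 and 131 at day 7, against 7.30, 12.7, 7.54 and 0 in control. Every IRI library lay far above the highest control. Ncam1 rose by 2.87 ± 0.60 at day 28 (adjusted p = 0.00374) and by 3.55 ± 0.65 at day 7 (adjusted p = 0.00268, lost without day 7 mouse 2, 0.0528). Myof, a membrane repair protein, rose by 1.51 ± 0.38 at day 28 (adjusted p = 0.0107, lost without day 28 mouse 3, 0.0712) and by 2.07 ± 0.42 at day 7 (adjusted p = 0.00464, lost without day 7 mouse 1, 0.0887).

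The other members of the list moved less firmly. Sox4, a factor of progenitor and injured epithelium, had 50.3, 39.0 and 35.6 CPM at day 28 and 104 and 84.3 at day 7, against 8.76, 12.7, 7.54 and 30.2 in control. It rose by 1.77 ± 0.60 at day 28 (adjusted p = 0.0467, lost without any of 8 libraries, up to 0.142 without control 1) and by 2.98 ± 0.61 at day 7 (adjusted p = 0.00493, lost without day 7 mouse 1, 0.105). Tgfbr1, the type I receptor of TGF-beta, rose by 1.45 ± 0.40 at day 28 (adjusted p = 0.016), with libraries that overlapped control 3, and the call was lost without day 28 mouse 2 (0.196). Bicc1, an RNA-binding protein of tubule polarity, rose by 0.82 ± 0.23 at day 7 (adjusted p = 0.0233), lost without day 7 mouse 1 or 2 or control 2 (up to 0.145).

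**Figure D4:**
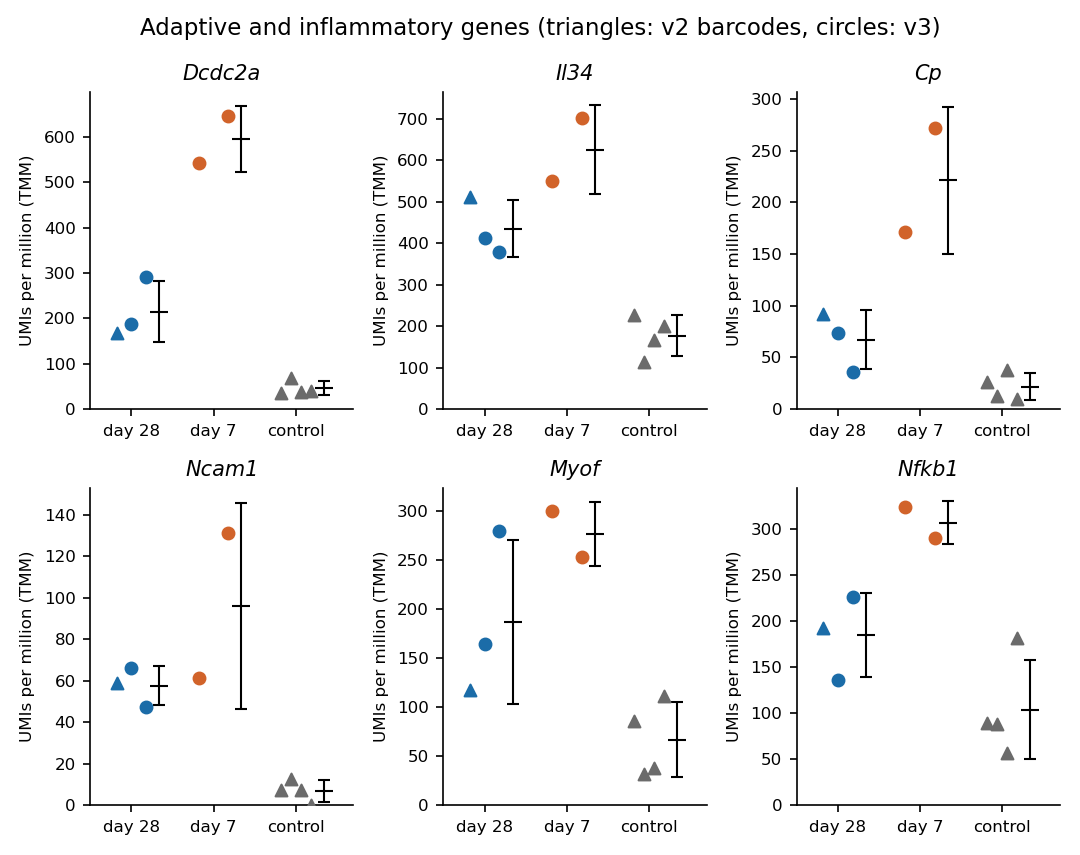
TMM-scaled CPM of Dcdc2a, Il34, Cp, Ncam1, Myof and Nfkb1 in members, 1 point per library (triangles v2, circles v3 barcodes), with the mean and SD of day 28, day 7 and control from left to right. All 6 genes are higher in both day 7 libraries than in any control, and Dcdc2a and Il34 also separate day 28 from both groups.

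Some genes outside these lists were higher in IRI members and had no or few UMIs in control members. Osmr, the receptor of oncostatin M, had 16.8, 19.5 and 59.4 CPM at day 28 and 55.0 and 103 at day 7, and no UMI in any control. Counted against a floor of 3 UMIs over all control members, Osmr was at least 14.3-fold higher at day 28 (17 UMIs) and at least 37.3-fold higher at day 7 (20 UMIs), with adjusted p = 0.00702 and 0.00351. Rnf180, a ubiquitin ligase, was at least 17.7-fold higher at day 28 and at least 29.8-fold higher at day 7 (adjusted p = 0.00554 and 0.00573, the first lost without day 28 mouse 2, 0.0551, and the second without day 7 mouse 1, 0.0743). Asic2, an acid-sensing channel, had 165 and 131 CPM at day 7, against 0, 6.34, 0 and 0 in control, and rose by 6.72 ± 0.83 (adjusted p = 0.000231). Rerg, a Ras-related growth regulator, had 41.9, 54.5 and 71.3 CPM at day 28 and 61.1 and 65.6 at day 7, against 1.46, 0, 0 and 10.1 in control. The IRI libraries lay well above the highest control. Rerg rose by 4.67 ± 0.82 at day 28 (adjusted p = 0.00109) and by 4.82 ± 0.90 at day 7 (adjusted p = 0.00301), held without any single library.

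At day 7 the transcription factors Npas3 and Creb5 and the gene Arhgap28 also ranked among the 8 highest. Npas3 rose by 4.84 ± 0.82 (adjusted p = 0.00173), Creb5 by 4.06 ± 0.82 (adjusted p = 0.00464) and Arhgap28 by 4.66 ± 1.13 (adjusted p = 0.0116). All 3 were lost without day 7 mouse 1 (0.0517, 0.15 and 0.145), and Arhgap28 also without mouse 2 (0.0731). Gm42418 (chr17:39846958-39848788, plus strand), a noncoding RNA that overlaps AY036118 on the opposite strand, had 11107 and 10491 CPM at day 7 and 403, 1562 and 2228 at day 28, against 762, 799, 732 and 655 in control. It rose by 3.87 ± 0.40 at day 7 (adjusted p = 4.66e-05), and by 1.64 with the barcode term (adjusted p = 0.414). The level was not particular to members, with 9314 raw CPM in other day 7 nuclei and 359 in other control nuclei. Whether the counts keep the strand is not stated, so overlapping partners cannot be told apart.

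The next genes ranked among the 8 highest at day 28, and none of them passed for day 28 against day 7. Ctnnd2, which encodes delta-catenin of neuronal junctions, had 75.5, 257 and 339 CPM at day 28 and 36.7 and 56.2 at day 7, against 11.7, 25.4, 18.9 and 10.1 in control. The day 28 libraries lay above all others, and the v2 library was the lowest of the 3. Ctnnd2 rose by 3.85 ± 0.47 (adjusted p = 0.000126), held without any single library, and by 2.25 with the barcode term (adjusted p = 0.106). Syt2, a synaptotagmin of vesicle release, rose by 4.10 ± 0.58 (adjusted p = 0.000311; 3.07 at day 7, adjusted p = 0.0111, lost without day 7 mouse 1, 0.341) and the cytokine Il7 by 3.39 ± 0.77 (adjusted p = 0.00578). Notch3, a Notch receptor, rose by 3.03 ± 0.87 (adjusted p = 0.0217), lost without control 1 (0.0594) or 3 (0.0601). Gm14002 (chr2:125207529-125217512, minus strand), annotated antisense within Slc12a1, had 16.8, 265 and 238 CPM at day 28 and 18.3 and 0 at day 7, against 8.76, 12.7, 3.77 and 0 in control. It rose by 4.54 ± 0.70 (adjusted p = 0.000511), but the v2 day 28 library held 16.8 and the barcode term gave 1.14 (adjusted p = 0.699). The unnamed transcripts Gm26892 and AC153364.1 rose by 3.65 ± 0.78 (adjusted p = 0.00446) and 3.02 ± 0.64 (adjusted p = 0.00393).

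Egfl6, Lrrc31, Naaladl2 and Kcnq1 lay above every control in the day 28 libraries of both barcode sets and passed with the barcode term. Egfl6, a secreted EGF-like matrix protein and 1 of the 15 leading member genes, had 319, 144 and 404 CPM at day 28 and 48.9 and 141 at day 7, against 58.4, 31.7, 41.5 and 30.2 in control. All day 28 libraries lay above all others. Egfl6 rose by 2.64 ± 0.40 at day 28 (adjusted p = 0.000463), and by 2.80 with the barcode term (adjusted p = 0.0319). Lrrc31 rose by 1.73 ± 0.27 (adjusted p = 0.00061), Naaladl2 by 1.77 ± 0.24 (adjusted p = 0.000237) and the potassium channel Kcnq1 by 1.22 ± 0.26 (adjusted p = 0.00407). In that fit these changes were 2.17, 1.63 and 1.60 (adjusted p = 0.0053, 0.0367 and 0.0482). Over members without PT UMIs Lrrc31 and Naaladl2 passed (1.35 and 1.23, adjusted p = 0.0195 for both), and Egfl6 and Kcnq1 did not (1.65 and 0.91, adjusted p = 0.0571 and 0.103).

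The list of the EGF receptor family and its ligands held calls on both sides. Of its 5 tested genes, 1 was higher and 2 lower at each time. Of all tested genes, 6.2% were higher and 13.2% lower at day 28, and 5.01% and 11.7% at day 7. With the barcode term 0 of the 5 passed at either time. Over members without PT UMIs 0 of 4 passed at day 28. At day 7 1 of 4 was lower, beside 162 of all 3099 genes tested there. Erbb4, a receptor of neuregulins and abundant in this segment, had 13364, 13569 and 12893 CPM at day 28 and 15695 and 11157 at day 7, against 9136, 9129, 7280 and 6199 in control. No IRI library overlapped the controls. Erbb4 rose by 0.74 ± 0.23 at day 28 (adjusted p = 0.0281, lost without any of 4 libraries, up to 0.107 without day 28 mouse 2) and by 0.76 ± 0.25 at day 7 (adjusted p = 0.0483, lost without any of 8, up to 0.342). Nrg1, a ligand of Erbb4, had 252, 164 and 178 CPM at day 28, against 450, 514, 460 and 403 in control, and fell by 1.24 (adjusted p = 0.00263), with control PT nuclei at 535 raw CPM and control members at 363. Errfi1, a feedback inhibitor of the receptors, fell by 1.26 at day 28 (adjusted p = 0.0307, lost without any of 4 libraries, up to 0.157) and fell by 2.29 at day 7 (adjusted p = 0.00931, lost without day 7 mouse 1, 0.196), with 745 raw CPM in control PT nuclei and 318 in control members.

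Rora, a nuclear receptor of the circadian loop, was the 1 circadian gene higher at each time among 7 tested. Tef, a clock output factor, was the 1 lower (-0.86 at day 28 and -1.54 at day 7, adjusted p = 0.0167 and 0.00417). The shares over all tested genes were 6.2% higher and 13.2% lower at day 28, and 5.01% and 11.7% at day 7. The Tef calls were lost without day 28 mouse 2 (0.141) and without day 7 mouse 1 (0.0985) or 2 (0.0573), and over members without PT UMIs the day 28 difference was 0.14 (adjusted p = 0.953). Rora had 629, 783 and 1004 CPM at day 28 and 868 and 1190 at day 7, against 365, 355, 324 and 454 in control, with no overlap. Rora rose by 1.12 ± 0.23 (adjusted p = 0.00321) and by 1.47 ± 0.26 (adjusted p = 0.00212), held without any single library. Over members without PT UMIs the changes were 0.76 (adjusted p = 0.111) and 1.27 (adjusted p = 0.00873).

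The lists of the respiratory chain, mitochondrial transcripts, fatty acid oxidation and NRF2 genes held lower calls only. Lower calls made up 13.2% of all tested genes at day 28 and 11.7% at day 7. Of 27 tested genes of the nuclear-encoded respiratory chain, 0 were higher and 16 lower at each time. Their medians were -1.73 at day 28 and -1.85 at day 7. All 7 tested mitochondrial transcripts were lower at both times, with medians of -2.79 and -4.07 (-3.69 with genes at 0 placed at their bound). Of 16 fatty acid oxidation genes, 8 were lower at day 28 and 5 at day 7, and of 14 genes of NRF2, glutathione and iron, 11 and 5 were lower, with none higher in either list. Over members without PT UMIs, 7 of 22 respiratory chain genes were lower at day 28 and 9 at day 7. For the 7 mitochondrial transcripts these counts were 5 and 6. They were 0 and 0 for 6 fatty acid oxidation genes and 3 and 3 for 9 NRF2 genes. Of all 3099 genes tested there, 100 and 162 were lower. With the barcode term the day 28 medians of the 27 and the 7 genes were -0.66 and -0.87, beside -0.07 over all genes, and no gene of either list passed. The PT markers, the share of Malat1 and the mitochondrial share of UMIs moved with these lists: mitochondrial genes took 0.0122% to 0.102% of member UMIs at day 28, 0.00985% and 0.0114% at day 7 and 0.107% to 0.208% in control, and beyond these repeats their part in the result was not tested.

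Fth1 (chr19:9980598-9985098, plus strand), the ferritin heavy chain that stores iron, had 210, 85.7 and 101 CPM at day 28 and 67.2 and 46.8 at day 7, against 1047, 1553, 1739 and 1310 in control. The highest IRI library lay far under the lowest control. Fth1 fell by 3.49 on the log2 scale at day 28 (SE 0.32, adjusted p = 9.15e-06) and fell by 4.58 at day 7 (SE 0.43, adjusted p = 2.12e-05), held without any single library. In the fit with the barcode term the changes were -2.75 (adjusted p = 0.0053) and -3.40 (adjusted p = 0.0648), and over members without PT UMIs the day 28 change was -2.83 (adjusted p = 1.32e-05). PT nuclei showed a fall too, with 333 ± 96.7 CPM at day 28, 174 ± 22.4 at day 7 and 1858 ± 449 in control (SD, n = 3, 2 and 4). The day 28 fall was 0.97 larger on the log2 scale in members than in PT nuclei (difference -0.97, adjusted p = 0.027).

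Hspa8, the constitutive heat shock protein Hsc70, had 67.1, 50.6 and 29.7 CPM at day 28 and 42.8 and 28.1 at day 7, against 302, 444, 434 and 554 in control, with changes of -3.13 (adjusted p = 4.85e-05) and -3.51 (adjusted p = 0.000231). It also passed with the barcode term at day 28, at -2.64 (adjusted p = 0.0367). Of the 10 tested genes of the heat shock and unfolded protein list that holds Hspa8, 1 was higher and 3 lower at day 28. At day 7 0 were higher and 3 lower. Of all tested genes 6.2% were higher and 13.2% lower at day 28, and 5.01% and 11.7% at day 7. Atp5g1, a subunit of the ATP synthase ring, had 50.3, 39.0 and 29.7 CPM at day 28 and 36.7 and 0 at day 7, against 175, 209, 192 and 252 in control, with changes of -2.36 (adjusted p = 0.000828) and -3.19 (adjusted p = 0.00186). No IRI library of either gene reached a control. The complex I gene mt-Nd1 had 50.3, 7.79 and 11.9 CPM at day 28 and fell by 3.34 (adjusted p = 0.000957), against 127, 247, 298 and 121 in control. It had no UMI at day 7, as did mt-Nd4, mt-Cytb and the superoxide dismutase gene Sod1, which makes them at least 12.9-fold, 8.64-fold, 12.6-fold and 7.87-fold lower than control. Apart from mt-Nd1, these day 7 calls were lost without day 7 mouse 1 (adjusted p = 0.0565, 0.105 and 0.0714).

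The hypoxia and glycolysis list had 1 higher and 5 lower genes of 12 at day 28, and 0 and 5 at day 7. Among all tested genes 6.2% were higher and 13.2% lower at day 28, and 5.01% and 11.7% at day 7. Vegfa, the endothelial growth factor, had 151, 187 and 196 CPM at day 28 and 91.6 and 56.2 at day 7, against 404, 273, 306 and 403 in control. The groups did not overlap, with day 7 lowest. Day 28 lay above day 7 without overlap in 14.9% of all tested genes. Vegfa fell by 0.95 at day 28 (adjusted p = 0.0136, lost without day 28 mouse 2, 0.0638, day 28 mouse 3, at 0.05, or control 1, 0.0512) and fell by 2.18 at day 7 (adjusted p = 0.00158). Its level in PT nuclei moved alike, with 156 ± 21.1 CPM at day 28, 77.7 ± 1.52 at day 7 and 281 ± 47.1 in control. Hk1, a hexokinase, was the higher one, with 394, 386 and 339 CPM at day 28 and 250 and 206 at day 7, against 174, 95.1, 140 and 202 in control. Hk1 rose by 1.29 ± 0.25 at day 28 (adjusted p = 0.00229), held without any single library, and control PT nuclei held 8.09 raw CPM of it, against 122 in control members. Ndrg1, a stress-induced gene, fell by 2.92 at day 28 (adjusted p = 8.58e-05), with 1803 raw CPM in control PT nuclei and 921 in control members.

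**Figure D5:**
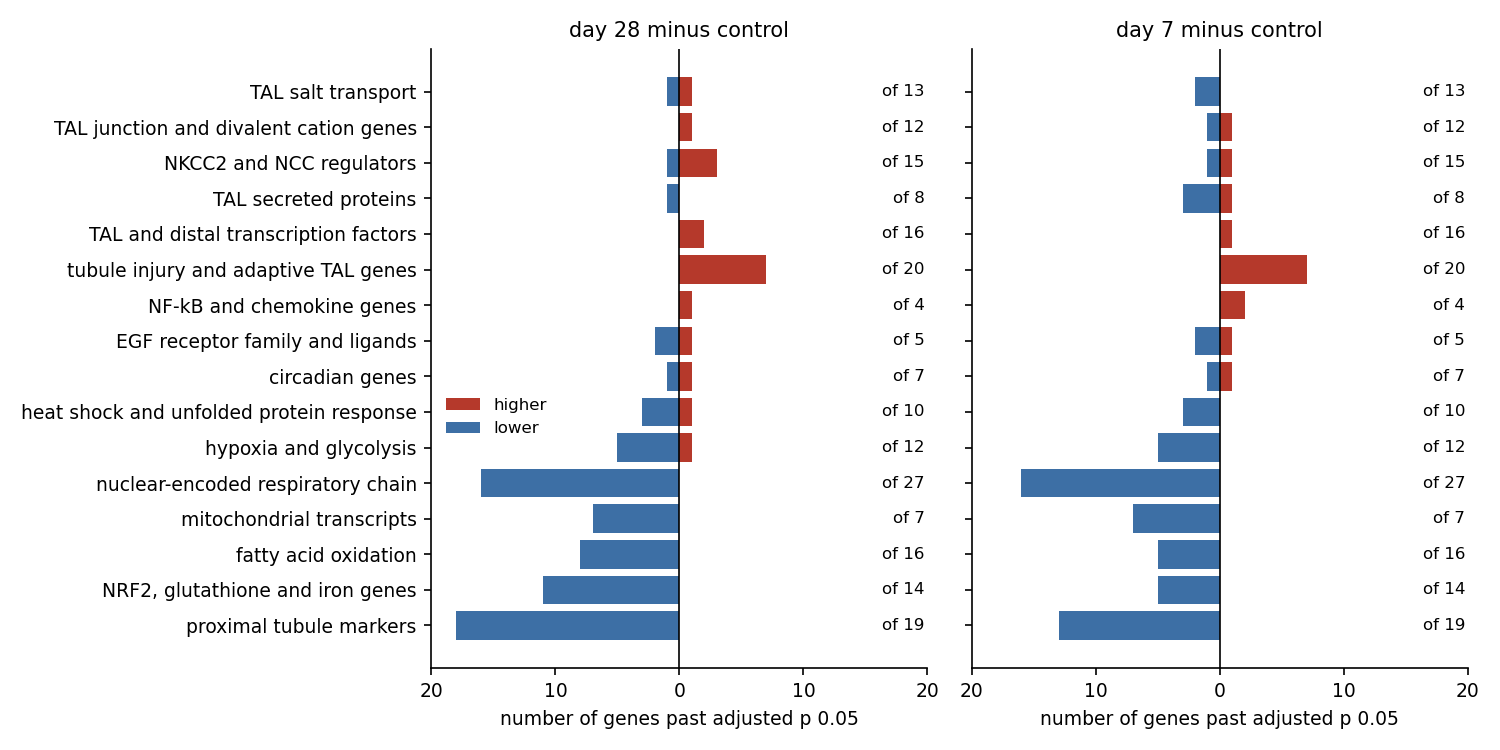
Number of genes of 16 lists past an adjusted p of 0.05 in members, lower to the left and higher to the right, for day 28 minus control (left panel) and day 7 minus control (right panel). The TAL lists hold few calls, the adaptive list only higher ones, and the respiratory chain, mitochondrial, fatty acid oxidation, NRF2 and PT lists only lower ones.

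Several of the lowest genes at day 28 had higher levels in control PT nuclei than in control members. Cyp4a14, a fatty acid hydroxylase, had no UMI in any IRI library and 26.3, 25.4, 294 and 131 CPM in control, at least 14.9-fold lower at day 28 and at least 6.73-fold lower at day 7 (the day 7 call lost without day 7 mouse 1, 0.229, or mouse 2, 0.116). Ugt1a10, whose terminal exons other Ugt1a genes share, Col6a6, Tmem252, Cops9 and Apoc3 also had no UMI at day 28 and were at least 12.4-fold, 12.9-fold, 9.24-fold, 7.92-fold and 6.20-fold lower. Ftcd, an enzyme of histidine breakdown, had 8.39, 0 and 0 CPM at day 28, against 393, 209, 385 and 383 in control, and fell by 7.16 (adjusted p = 8.16e-06). Clec2h, a lectin-like receptor, had 0, 3.90 and 0 CPM, against 315, 469, 238 and 262, and fell by 7.07 (adjusted p = 8.16e-06). In raw CPM, control PT nuclei held more of Ftcd (498) and Clec2h (616) than control members did (273 and 255). Of the 19 tested PT markers 18 were lower at day 28 and 13 at day 7, and Slc34a1 fell by 2.72 at day 28 (adjusted p = 0.000589) and fell by 2.87 at day 7 (adjusted p = 0.00261, lost without day 7 mouse 1, 0.0819). Gpx3, a secreted glutathione peroxidase of the PT, fell by 3.73 at day 28 (adjusted p = 0.000338), and Kap, a PT androgen-regulated protein, fell by 2.96 (adjusted p = 0.000367).

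At day 7 the remaining lowest genes were Gm48678, Gm16541 and Unc13c. Each had no UMI at day 7 and was at least 6.97-fold, 6.91-fold and 7.21-fold lower than control (adjusted p = 0.00451, 0.00669 and 0.0116). All 3 calls were lost without day 7 mouse 1 (0.0866, 0.105 and 0.131), and Unc13c also without mouse 2 (0.0557). Robo2, an axon guidance receptor on the macula densa list, had 36.7 and 18.7 CPM at day 7, against 181, 520, 71.7 and 70.6 in control, and fell by 2.81 (adjusted p = 0.0489), lost without either day 7 mouse or control 1 or 2 (up to 0.22). The sodium pump subunit Atp1b1 fell by 0.83 at day 7 (adjusted p = 0.0363), lost without any of 6 libraries (up to 0.245).

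Day 28 and day 7, which shared reporter, drug and sort, differed in 39 genes (0.787% of those tested), 29 higher (0.585%) and 10 lower (0.202%) at day 28. Without day 7 mouse 1 the count was 0, with 576 at an unadjusted p under 0.05, and without day 7 mouse 2 it was 2. Within the v3 barcodes 10 genes passed and with the barcode term 28 did. DESeq2 called 38.

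The 8 highest genes were all noncoding, without a UMI in any day 7 member, and 6 were annotated antisense to other genes. All 8 were also lower at day 7 in the other nuclei of the sorts, for example 166 raw CPM of Gm48678 at day 28 and 8.02 at day 7, and 81.2 and 2.13 of Gm26836. Gm15261 (chrX:169037674-169106536, minus strand), antisense to Arhgap6, had 109, 148 and 244 CPM at day 28 and 0 and 0 at day 7, with 19.0, 50.7, 26.4 and 10.1 in control. It was at least 13.8-fold higher at day 28 (adjusted p = 0.00632, lost without day 7 mouse 1, 0.092, or mouse 2, 0.0713). Gm48678, Gm31763, Sox5os4, Gm44686 and Gm15563 were at least 11.1-fold, 7.53-fold, 5.87-fold, 4.97-fold and 4.52-fold higher, and the long intergenic RNAs 1700030F04Rik and Gm26836 at least 6.47-fold and 4.67-fold. All of these calls were lost without either day 7 mouse (adjusted p up to 0.281). Gm26836 was also lost without any other single library, and 1700030F04Rik and Gm15563 without day 28 mouse 1 or 3 or any control. Gm44686 was also lost without any control, and Sox5os4 without control 4. Tmem52b (chr6:129512555-129519227, plus strand), a membrane protein of distal segments, had 285, 140 and 149 CPM at day 28 and 30.5 and 0 at day 7, with 83.2, 69.7, 109 and 90.7 in control. It was 3.31 ± 0.63 higher at day 28 (adjusted p = 0.02), lost without day 7 mouse 1 (0.0806) or 2 (0.246).

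Of the 10 genes lower at day 28, Ntn1, a guidance and survival factor, had 75.5, 62.3 and 71.3 CPM at day 28 and 287 and 365 at day 7, with 182, 178, 290 and 282 in control. The day 28 libraries lay under all others. Its day 28 minus day 7 change was -2.23 ± 0.34 (adjusted p = 0.00632, lost without day 7 mouse 1, 0.0757, or mouse 2, 0.112), and -2.28 with the barcode term (adjusted p = 0.00618). Pth1r, the receptor of parathyroid hormone, had 159, 121 and 83.2 CPM at day 28 and 318 and 450 at day 7, with 188, 254, 162 and 242 in control. Both day 7 libraries lay above all others and every day 28 library under the lowest control. Its change was -1.67 ± 0.33 (adjusted p = 0.0264, lost without day 7 mouse 1, 0.092, mouse 2, 0.368, day 28 mouse 2, 0.066, or mouse 3, 0.076), and -1.86 with the barcode term (adjusted p = 0.0195). In PT nuclei Pth1r averaged 197 ± 48.3 CPM at day 28 and 647 ± 337 at day 7. Gm42418 was 2.94 ± 0.43 lower at day 28 (log2 change -2.94, adjusted p = 0.00632, lost without day 7 mouse 1, 0.0757). The changes of Mfsd4b5, Kcnk5, AC135964.2, Rras2 and Them7 ran from -2.53 to -1.94 (adjusted p from 0.0149 to 0.0496), each lost without either day 7 mouse. Mfsd4b5 was also lost without day 28 mouse 2 or any control, and Kcnk5 without day 28 mouse 2 or 3 or any control. Rras2 was also lost without any day 28 mouse or control 2, 3 or 4, and AC135964.2 without day 28 mouse 2.

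The last question was whether day 28 changed a gene by another amount in members than in the 10691 PT nuclei without injury transcripts of the same libraries. The interaction passed for 491 of 8639 genes (5.68%), 86 with a more positive change in members (0.995%) and 405 with a more negative one (4.69%). With the barcode term 11 passed, over members without PT UMIs 71 (35 and 36), and without day 28 mouse 2 216. PT nuclei themselves changed in 1672 of 9564 genes (17.5%) at day 28, 781 higher (8.17%) and 891 lower (9.32%), and in 2241 (23.4%) at day 7, 943 higher (9.86%) and 1298 lower (13.6%).

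Pdgfd (chr9:6168584-6378850, plus strand), a ligand of PDGF receptor beta, stood out for its basal level. Members had 1032, 1091 and 802 CPM at day 28 and 874 and 609 at day 7, against 685, 596, 547 and 302 in control. PT nuclei averaged 320 ± 178 CPM at day 28, 402 ± 34.5 at day 7 and 12.2 ± 4.94 in control (SD, n = 3, 2 and 4). Pdgfd thus rose by 4.75 ± 0.41 in PT nuclei (adjusted p = 0.000125) and by 0.84 ± 0.26 in members (adjusted p = 0.0281, lost without day 28 mouse 2, 0.103, or control 3 or 4, 0.0538 and 0.0591), and the change in members minus that in PT nuclei was -3.96 ± 0.31 (adjusted p = 2.18e-09). That difference held without any single library and with the barcode term (-3.34, adjusted p = 8.26e-05).

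Of the 86 genes with a more positive day 28 change in members, the named ones were Pex5l, Gpm6b, Ctnnd2 (3.01 ± 0.63, adjusted p = 0.00267), Tbc1d2 (2.79), Sntb1 (1.93) and Frmd4a (1.92). Pex5l and Gpm6b had no UMI in day 28 PT nuclei, so their differences have no size (adjusted p = 0.0138 and 0.0338). Pex5l, a partner of HCN channels, had 75.5, 93.5 and 65.4 CPM in day 28 members, against 13.1, 6.34, 15.1 and 0 in control members, and its difference was lost without day 28 mouse 2 (adjusted p = 0.107). The differences of Gpm6b, Tbc1d2, Sntb1 and Frmd4a were also lost without day 28 mouse 2 (0.188, 0.208, 0.365 and 0.228). Frmd4a, a scaffold of cell polarity, had 285, 296 and 273 CPM in day 28 members, against 105, 82.4, 102 and 131 in control members, without overlap, and PT nuclei averaged 8.72 at day 28 and 14.1 in control. Ctnnd2 was lost without day 28 mouse 3 (adjusted p = 0.0545). The named negative differences beside Pdgfd were Tmem252, which had no UMI in day 28 members (adjusted p = 0.00615), Clec2h (-4.33 ± 0.82), Gm853 (-3.74), Ak4 (-3.68) and Hsd3b3 (-3.49), of which Tmem252 was lost without day 28 mouse 1 (0.12). Hsd3b3, a steroid dehydrogenase, averaged 280 CPM in day 28 PT nuclei and 152 in control PT nuclei, while members had 25.2, 3.90 and 11.9 CPM at day 28, against 46.7, 95.1, 117 and 111 in control.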

How the data were processed

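Nuclei of 9 mice were sorted for GFP and sequenced as single-nucleus libraries. Raw UMI counts were deposited by the authors as 1 matrix for IRI (19342 genes) and 1 for control (17455 genes), in which no gene was seen in fewer than 3 nuclei. Cell Ranger, STAR and Seurat, with mm10 as the build, are listed in the submitters' processing notes without versions. Use of strand and the kit of each library are not stated, and barcode sets were read from the barcodes. The labels' protocols say that doublets were gated out at the sorter, and no caller was run. Kidneys were separate mice. A p-value measures the spread between these libraries.

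Members were found by the rule on raw UMIs over the 16939 genes of both tables, 16723 of which (98.7%) matched GENCODE M21 (GRCm38), the source of coordinates. Counts of members were summed per library, since nuclei are not replicates. The test was edgeR 4.0.16 in R 4.3.3 (glmQLFit, glmQLFTest, TMM factors, filterByExpr), with group as the only term, all 9 libraries in 1 fit and Benjamini-Hochberg adjusted p-values over all genes tested. The interaction with PT nuclei had library as a block. All 4 fits, the interaction included, were run on simulated counts with the same spread for all genes. Those counts held no difference in barcode set or PT RNA between groups, so they cannot show the effect of either. Shares were compared with exact permutation tests in Python 3.11.15 with scipy 1.17.1, numpy 2.4.6 and pandas 2.3.3, and figures were drawn with matplotlib 3.10.9. A gene with no UMI in a group was bounded by a floor of 3 UMIs over that group.

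Named genes were, per comparison, the 8 highest and 8 lowest changes (6 for the interaction) among genes past an adjusted p of 0.05 outside the 7 genes of the rule, without overlap between libraries and with a mean of at least 50 CPM in the higher group, plus up to 4 genes per list by smallest p, plus Slc12a1, Umod and Egf. Against other nuclei they were the 15 highest ratios among genes of at least 100 CPM in members. Kcnj16, Cul3, Cp, Sox4, Pdgfd, Nrg1, Errfi1, mt-Nd1, Osmr and Rnf180 at day 28, Casr, Sox4, Bicc1, Errfi1 and Slc34a1 at day 7, and Egfl6, Lrrc31, Naaladl2, Kcnq1 and Hes1 were named after their values were seen. Lists are described by counts and medians. Members and lists were chosen with earlier results of these data known.

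Alternatives were DESeq2 1.42.0, its size factors, no filter on low counts, the barcode set as a term, fits within 1 barcode set, stricter rules for members, a minimum of 1000 UMIs, thinning every nucleus to 1000 UMIs (for shares), leaving out the 5% of nuclei with most UMIs, a replicate block, each library left out in turn, and members without UMIs of Slc34a1 or Lrp2. The numbers were not taken as pairs. A correlation of deviations from group means cannot decide whether pairs exist, since the 2 day 7 libraries deviate as mirror images. No column of the tables belonged to a sample outside the 9.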

Additional observations from a re-analysis of the deposited data

Results flagged for a closer look

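Single control libraries stood far from the other 3 in 5 of the 92 genes examined this way, and chance alone sets about 1 in 20 such groups apart. Control 2 had 6.34 CPM of Asic2 where the others had 0, 69.74 CPM of Dcdc2a where the others had 36.49 to 40.32, and 209.2 CPM of Ftcd where the others had 383 to 392.7. Control 1 had 27.74 CPM of Gm31763 where the others had 50.4 to 52.81, and control 4 had 10.08 CPM of Rerg where the others had 0 to 1.46. The Asic2 value of control 2 and the Rerg value of control 4 were 1 UMI each.

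The 12 genes named for a day 28 change that differed between TAL members and PT nuclei were chosen by that test of the difference, and are given as values. The log2 differences, members minus PT nuclei, were 3.008 for Ctnnd2, 2.79 for Tbc1d2, 1.931 for Sntb1 and 1.922 for Frmd4a. They were -4.33 for Clec2h, -3.962 for Pdgfd, -3.743 for Gm853, -3.676 for Ak4 and -3.489 for Hsd3b3. Pex5l and Gpm6b had no UMI in day 28 PT nuclei and Tmem252 none in day 28 members, so only their adjusted p is given (0.0138, 0.0338 and 0.00615, edgeR quasi-likelihood test). PT RNA in control members, given above, moved with the negative group, and its part was not tested.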

How the results depend on the processing

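The count of 827 genes for day 7 against control was 0 with the barcode set as a term, 211 over members without PT UMIs and 75 to 956 with 1 library left out (75 without day 7 mouse 1, 277 without mouse 2). The 963 genes for day 28 against control were 18 with the barcode term, 43 within the v2 barcodes, 124 over members without PT UMIs (24 higher, 19.4% against 31.9%) and 422 to 1146 with 1 library left out (422 without day 28 mouse 2, 619 without mouse 3). The 39 genes between day 28 and day 7 were 139 without the filter on low counts, 19 with Slc12a1 and Umod of at least 5, 12 with injury transcripts at 0, 15 in nuclei of at least 1000 UMIs, 24 over members without PT UMIs, 10 within the v3 barcodes and 0 to 35 with 1 library left out (25 without day 28 mouse 2, 24 without control 2, 25 without control 4). The 491 interaction genes were 316 by DESeq2, 11 with the barcode term, 71 over members without PT UMIs (35 higher, 49.3% against 17.5%) and 216 to 560 with 1 library left out. The cause was not tested. The share differences ranged from -4.27 to -0.897 (IRI minus control) and from 2.16 to 3.81 (day 28 minus day 7) with 1 library left out.

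With the replicate number as a block the counts were 463, 718, 16 and 527. Pairing was not given by the labels. Deviations from group means correlated at -0.200 to 0.058 in same-numbered libraries (7 pairs), against -0.083 to 0.180 for the other 19. The 2 day 7 libraries deviate as mirror images by construction, so these values cannot decide whether pairs exist. Of the named calls, the day 28 difference of Tef turned to 0.137 over members without PT UMIs, and no other changed sign under the settings run. Over all called genes, the barcode term kept the sign of 561 of 579 lower and 240 of 248 higher genes at day 7. At day 28 it kept that of 656 of 656 and 304 of 307. Members without PT UMIs kept the sign of 297 of 320 lower and 257 of 258 higher genes tested at day 28. At day 7 they kept that of 321 of 325 and 201 of 202. Over all genes tested, called or not, the term kept 72.2% of signs at day 7 and 76.65% at day 28. Members without PT UMIs kept 79.8% and 76.3% of them. The called genes were chosen in the same libraries, so their agreement in sign is no separate support. The share difference of IRI minus control was positive within the v2 barcodes (0.271). Of 133 named calls, RLE size factors kept 127, DESeq2 119 of 130, the barcode term 21 and members without PT UMIs 47 of 96. With 129 members at day 7, low genes were out of reach.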

Other observations

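Once the barcode set entered the fit, 18 genes passed for day 28 against control. The 10 lower ones were Clec2h, Ftcd, Cndp2, Gas2, Xylb, Fth1, Hspa8, Slc47a1, Ndrg1 and Pter. The 8 higher ones were Kcnq1, Naaladl2, Prr14, Lrrc31, Fndc9, Egfl6, Hes1 and Ebf1. Hes1, a transcriptional target of Notch receptors, had 436, 81.8 and 23.8 CPM at day 28 and 36.7 and 18.7 at day 7, against 36.5, 82.4, 45.3 and 60.5 in control. Only day 28 mouse 1, the v2 library of its group, lay above the controls. Its change was 3.09 with the term (adjusted p = 0.0053) and 1.68 without it (adjusted p = 0.0749).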
